A study of Mus musculus with 32 samples.

Results

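The oocytes of B6xD2 F1 hybrid females were compared with those of the inbred B6 parent at the germinal vesicle (GV) stage, in 6 F1 and 5 B6 RNA-seq libraries out of the 32 of the study. The libraries were taken by the strain and stage in their column names, and batch was a term of every main fit. B6 and D2 are inbred mouse strains and the F1 is their cross; the sources used here name no substrain. The females came from a commercial supplier and were used at 8 to 12 weeks of age. No strain carried a transgene and none was treated, but all GV oocytes were collected in medium with the phosphodiesterase inhibitor IBMX, which holds them in meiotic arrest, and their zonae were dissolved in acid. Each library was made from 9 to 20 pooled oocytes, all from 1 female. The labels name no animal, and libraries of a group were taken as separate animals. Both groups held 3 libraries of batch 1, and F1 had 3 and B6 2 of batch 2, which was read on another sequencer model. The 5 D2 GV libraries are given beside the results as the other parent.

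The GV oocyte is the fully grown oocyte, held in meiotic prophase until ovulation, with little new transcription and a large store of maternal mRNA. The stored messages serve meiotic maturation, egg activation and the first steps of the embryo. At this stage the oocyte of an F1 female still holds the chromosomes of both parents, so its store was transcribed from B6 and D2 alleles in a shared cell. A B6 oocyte holds B6 alleles only.

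The 11 libraries held between 18696957 and 39688961 counts each, with a median of 23832167, and between 19096 and 25439 genes with at least 1 read. The 14 oocyte identity markers were detected in every library, with a summed level of 10400 to 13300 CPM (counts scaled to a common library size) in B6 and 10200 to 12700 in F1. The first principal component of log2 CPM held 36.2% of the variance and separated the batches. B6 replicate 2 of batch 2 stood apart on the second. The 28 granulosa and cumulus markers summed to 376 to 4240 CPM in B6 (median 1020) and 387 to 2500 in F1 (median 1070). B6 replicate 1 and F1 replicate 1 of batch 2 had the lowest sums, with 11 and 8 of the markers at 0, against 1 to 4 in the other 9 libraries. Of 25 granulosa markers tested none was called, with a median log2 difference of 0.15. The 26 theca, stroma and blood markers summed to 62.6 to 137 CPM in B6 and 54.7 to 217 in F1, with up to 14 of them at 0 in a B6 and 10 in an F1 library. A fit with the granulosa level as a covariate called 1118 genes. Which differences follicle-cell RNA had a part in was not tested.

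The first question was which stored transcripts differ between F1 and B6. Of 19003 genes tested, 1045 differed at an adjusted p under 0.05 by the quasi-likelihood test of edgeR (Benjamini-Hochberg adjustment), or 5.5%. Of these, 538 were higher in F1 (2.83%) and 507 lower (2.67%). A difference of at least 2-fold was reached by 281 of the higher genes (1.48%) and 163 of the lower (0.858%). The median called difference was 1.03 on the log2 scale among the higher genes and −0.74 among the lower, against −0.02 over all genes tested. All 1045 had the same direction in both batches. The batch values come from the libraries that made the calls, so this is a description and no separate test. In 285 of the higher genes every F1 library lay above every B6 library, and in 160 of the lower genes every F1 library lay below, while over all genes tested such a gap was found for 1.93% and 1.52%. All reads were counted against 1 assembly, GRCm38.p4, and its part in lower F1 counts was not tested.

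The count rested in part on single libraries and on batch. Left out singly, the libraries left 650 to 1171 genes called. Without B6 replicate 1 of batch 2, which had a low granulosa level, 650 were called, and without it and the F1 library of low granulosa level 537, 321 higher and 216 lower. Batch 1 alone gave 216 calls and batch 2 alone 992. A term for each replicate number within a batch, called a replicate block, gave 879 calls, 478 higher and 401 lower. The names of batch 2 libraries carry 2 dates: both B6 libraries and F1 replicate 3 share one, and F1 replicates 1 and 2 have the other. With these as separate batch levels 776 genes were called, 445 higher and 331 lower. Among genes named below, that fit did not call Ccl28, Extl1, Usp9x, Rdx, Atrx, Obox2, Lsm1, Hspa8, Rad51d, Gpnmb, Camk2g, Fbxw26, Gclm, Hsd17b7, Mrpl10, Mrpl35 and Rpl14. No gene called in the main fit was called in the opposite direction under any of the settings tried.

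**Figure D1:**
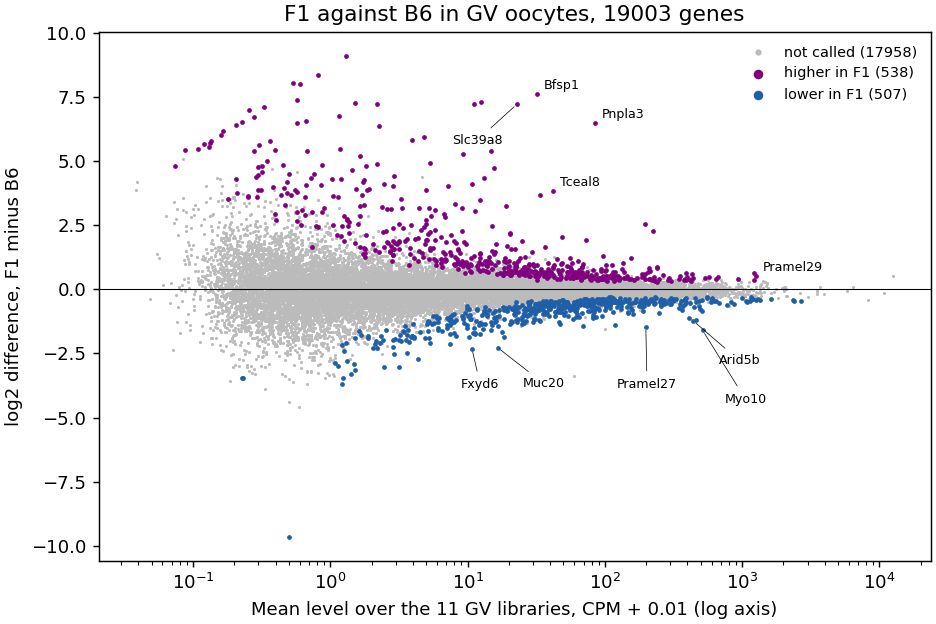
Each point is 1 of 19003 genes, with its mean level over the 11 GV libraries (CPM plus 0.01, log axis) and its log2 difference, F1 minus B6. The 538 genes higher in F1 are purple and the 507 lower genes blue, with fitted differences up to 9.09 and down to −9.64. The lowest point is an entry without a gene symbol that had no read in the 6 F1 libraries, and its fitted value is no bound.

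By mean CPM, which is not per length, the share called lower rose from 0.0625% under 1 CPM to 9.44% above 500 CPM. The share called higher was 1.44% under 1 CPM, 4.09% between 20 and 100 CPM, 4.0% between 100 and 500 CPM and 2.8% above 500 CPM. Under 1 CPM on average, 69 genes were called higher and 3 lower of 4801 tested. Between 20 and 100 CPM the counts were 170 and 216 of 4159, and above 500 CPM 8 genes were called higher and 27 lower of 286 tested. The share called was 5.89% of 15175 protein-coding genes and 3.66% of 2649 long non-coding RNA genes. By chromosome it ran from 3.86% on chromosome 11 to 7.84% on chromosome 1 among the autosomes, with 5.61% over all of them and 2.95% of 713 genes on the X, of which 9 were higher and 12 lower. The longest annotated transcript had a median length of 3504 nt among higher genes, 3721 nt among lower genes and 3065 nt over all genes tested, with a length found for 85.3%, 94.7% and 89.0% of them. These are counts of the same calls and were not tested further.

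Among called genes of at least 5 CPM, with predicted genes and pseudogenes left out, the 8 largest gains in F1 were in genes that B6 oocytes hardly held and D2 oocytes held at clear levels. In the sentences that follow, the B6 values are given for replicates 2, 4 and 5 of batch 1 and then replicates 1 and 2 of batch 2. Pnpla3, whose product acts on the lipids of lipid droplets, was at 0.705, 1.28, 1.25, 3.12 and 2.38 CPM in B6, and at 121 to 200 CPM in F1 with a median of 140. The groups lay far apart, with F1 higher by 6.48 ± 0.21 on the log2 scale (SE), an 89.2-fold difference, and adjusted p = 8.78e-23. D2 libraries held 248 to 346 CPM of Pnpla3, above every F1 library. Gpat3, an enzyme that starts triacylglycerol synthesis, was at 0.828, 0.763, 0.47, 0.993 and 0.123 CPM in B6 and 21.7 to 31.5 in F1 (median 26.8), a log2 difference of 5.41 ± 0.38 (adjusted p = 8.16e-13). F1 held less Gpat3 than every D2 library (38.2 to 58.5 CPM), although F1 against D2 did not pass at adjusted p = 0.168.

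Bfsp1, a filament protein best known from the lens, was at 0.123, 0.347, 0.117, 0.425 and 0.411 CPM in B6. It reached 36.8 to 94.0 CPM in F1, with a median of 45.3, and 95.6 to 213 CPM in D2. The 3 groups did not overlap, and F1 was above B6 by 7.61 ± 0.33 on the log2 scale (adjusted p = 1.81e-18) and below D2 (adjusted p = 5.59e-05). Gsto2, a glutathione transferase of the omega class, lay at 0.0821 to 0.235 CPM in B6 and 12.7 to 28.2 in F1 (median 21.0), a log2 difference of 7.24 ± 0.39 with adjusted p = 5.11e-16. Slc39a8, which encodes the metal importer ZIP8, was at 0.521, 0.382, 0, 0.378 and 0.0821 CPM in B6, from 38 reads over the 5 libraries. In F1 it was at 21.2 to 67.8 CPM (median 37.1), higher by 7.21 ± 0.49 on the log2 scale with adjusted p = 9.04e-13. Its F1 level overlapped the D2 level of 23.3 to 44.4 CPM, with a log2 difference of 0.28 between F1 and D2 that did not pass (adjusted p = 0.789).

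Manba, the lysosomal beta-mannosidase, rose from 1.00 ± 1.03 CPM in B6 (SD, n = 5) to 27.7 ± 8.89 in F1 (SD, n = 6). Arhgef15, a guanine nucleotide exchange factor, rose from 0.428 ± 0.402 to 16.5 ± 4.83 CPM. Draxin, a secreted axon guidance protein, rose from 1.07 ± 0.538 to 23.1 ± 5.75 CPM. Every F1 library lay above every B6 library for these 3 genes, at log2 differences of 4.74 ± 0.42, 5.28 ± 0.41 and 4.34 ± 0.27 and adjusted p of 7.15e-10, 9.12e-12 and 2.42e-14. The size of 2 of them depended on single B6 libraries: Manba stood at 5.59 without replicate 2 of batch 2 and Arhgef15 at 5.97 without replicate 2 of batch 1. Manba also stood at 5.61 in limma-voom and 4.04 in batch 2 alone, and Slc39a8 at 7.82 in limma-voom. All 8 genes were called whichever of the 11 libraries was left out, and in each batch alone.

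**Figure D2:**
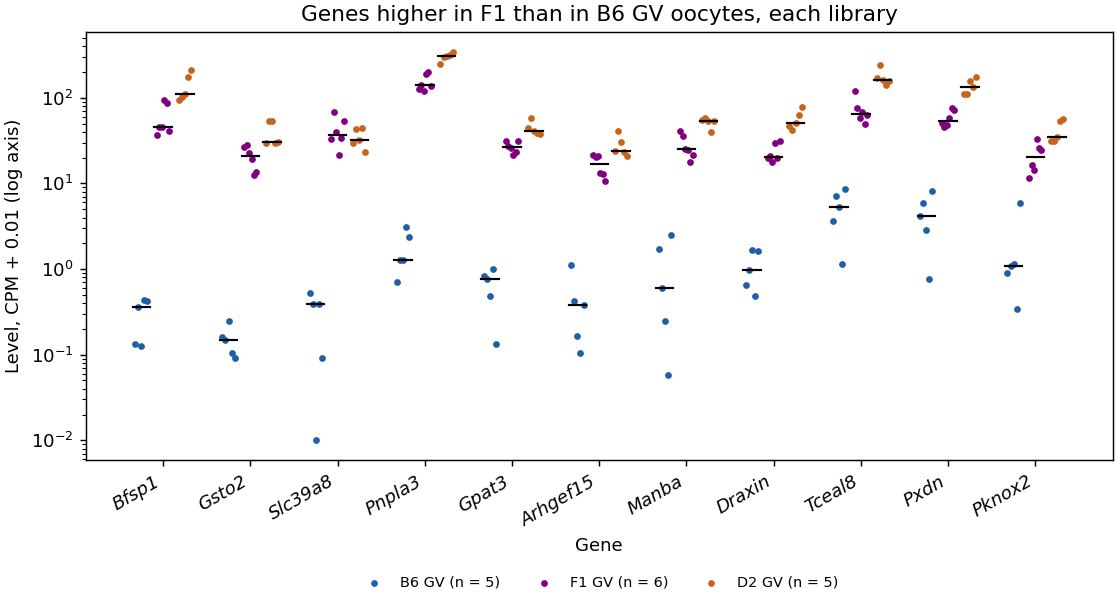
Level of 11 genes higher in F1, in CPM plus 0.01 on a log axis, with 1 point per GV library of B6 (blue, n = 5), F1 (purple, n = 6) and D2 (orange, n = 5) and a bar at the group median. No F1 point overlaps a B6 point for these genes, and for Slc39a8 the F1 and D2 points overlap while for Bfsp1 and Pnpla3 they do not.

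The named genes can be set against the midpoint of the parents. Against the mean of the parents' log2 levels 167 genes differed in F1 (0.879%), and against D2 1149 did (6.05%). For a gene near 0 in B6 the mean of logs lies far below the mean of the levels themselves, so both are needed. On the log2 scale Pnpla3, Bfsp1, Gsto2 and Slc39a8 lay above the midpoint by 2.72, 3.15, 3.18 and 3.75. Set against the mean of the parental CPM, the F1 level was 1.01 times that mean for Pnpla3, 1.04 for Gsto2, 1.04 for Manba, 1.19 for Gpat3, 0.831 for Bfsp1 and 0.806 for Draxin. Slc39a8 stood at 2.4 times the mean of the parental levels. These ratios share the B6 libraries with the comparison above and carry no test of their own.

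The same arrangement held more widely for genes counted at clear levels in 1 parent and near 0 in the other. They were picked on the B6 and D2 libraries after their values were seen. Reads of every strain were counted against 1 assembly, GRCm38.p4, and its part in low D2 or F1 counts was not tested. In 40 genes the D2 mean was at least 5 CPM, with at least 1 CPM in every D2 library, and the B6 mean was under 1 CPM. F1 stood at a median of 47.6% of the D2 level in them, with a range of 3.71% to 121%, and every F1 library was above every B6 library in 36, beside 1.93% of all genes. The other 4 were Stab2, Scube1, Gm34576 and Gm16001. Stab2, a scavenger receptor, was at 0.231 ± 0.204 CPM in F1 (SD, n = 6) beside 0.195 ± 0.246 in B6 (SD, n = 5) and 6.22 ± 4.53 in D2 (SD, n = 5). In the opposite class, 97 genes were at 5 CPM or more in B6, with at least 1 CPM in every B6 library, and under 1 CPM in D2. F1 stood at a median of 41.0% of the B6 level in these, with a range of 12.6% to 72.0%, and every F1 library was below every B6 library in 44, beside 1.52% of all genes. Of the 97, 43 were called lower in F1, beside 2.67% of all genes, and none higher. Among the 97 were 13 vomeronasal receptor (Vmn1r) genes, all called lower, of a family with many near-identical copies. The split of counts between such copies is uncertain, so the 43 are not 43 independent changes. The B6 and D2 libraries that chose both classes also enter the percentages, the calls and the counts without overlap, so all of these are descriptions.

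Among called genes of at least 5 CPM, predicted genes and pseudogenes left out, the 8 largest losses were smaller on the log2 scale than the 8 largest gains. Fxyd6, a small regulator of the sodium pump, was at 17.4, 14.2, 25.4, 13.2 and 25.1 CPM in B6 and at 2.96 to 5.01 in F1 (median 3.64). The groups did not overlap, at a log2 difference of −2.31 ± 0.47 (adjusted p = 0.00175). F1 was at the D2 level for this gene, 3.29 ± 2.42 CPM in D2 (SD, n = 5), with a log2 difference of 0.22 that did not pass (adjusted p = 0.908). Muc20, a membrane mucin, was at 18.7, 22.8, 21.0, 49.4 and 33.7 CPM in B6 and 3.89 to 8.47 in F1 (median 5.84), lower by −2.27 ± 0.24 on the log2 scale (adjusted p = 3.03e-08). All F1 libraries of Muc20 also lay above the D2 range of 2.05 to 3.48 CPM. Tlcd3a, a membrane protein with a TLC domain, fell from 30.6 ± 4.84 to 8.49 ± 3.09 CPM, and Ccdc180, a coiled-coil protein, from 11.7 ± 2.87 to 3.88 ± 1.90 CPM, with adjusted p of 0.000233 and 0.00981. Neither overlapped between the groups. Fxyd6, Muc20, Tlcd3a and Ccdc180 were called whichever library was left out, and of the 4 batch 1 alone called Muc20 and batch 2 alone did not call Ccdc180.

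Calls for Ccl28 and Extl1, which also met the rule for the largest losses, were less firm. Ccl28, a chemokine, fell from 8.70 ± 4.46 to 2.32 ± 0.71 CPM, and Extl1, an exostosin-like glycosyltransferase, from 17.0 ± 3.87 to 4.64 ± 2.65 CPM. The groups did not overlap for either. Adjusted p was 0.0337 and 0.0406, but Ccl28 was lost in 8 and Extl1 in 10 of the 11 fits that each left out 1 library, with a highest adjusted p of 0.228 (without B6 replicate 1 of batch 2) and 0.122 (without B6 replicate 2 of batch 2). With a replicate block Extl1 was not called (adjusted p = 0.0861).

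Some larger losses in genes of high mean CPM fell outside that rule and were named after their values were seen. Myo10, an unconventional myosin of filopodia, was at 523, 505, 817, 1010 and 1140 CPM in B6 and 155 to 407 in F1 (median 286). Arid5b, an ARID-domain transcriptional coregulator, was at 474, 463, 585, 841 and 825 CPM in B6 and 208 to 320 in F1 (median 301). Pramel27, of the PRAME family that is active in germ cells, was at 362, 402, 243, 327 and 201 CPM in B6 and 82.5 to 158 in F1 (median 99.2). No F1 library reached the lowest B6 library for these 3 genes. Their log2 differences were −1.60 ± 0.18, −1.23 ± 0.12 and −1.46 ± 0.14, with adjusted p of 1.21e-07, 1.22e-09 and 3.4e-09, and each was called under every alternative run. In D2 the same genes held 141 ± 74.3, 9.26 ± 3.10 and 20.6 ± 7.57 CPM (SD, n = 5 each). F1 was thus above D2 in each, by 0.95, 4.88 and 2.50 on the log2 scale (adjusted p = 0.000554, 3.3e-24 and 2.28e-14).

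**Figure D3:**
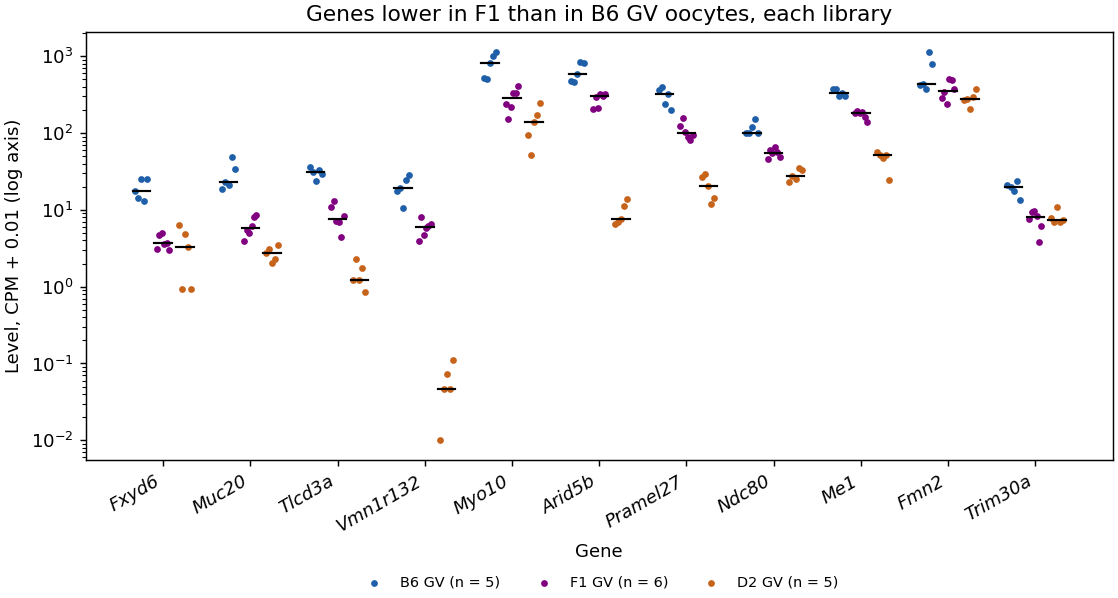
Level of 11 genes lower in F1, in CPM plus 0.01 on a log axis, with 1 point per GV library of B6 (blue, n = 5), F1 (purple, n = 6) and D2 (orange, n = 5) and a bar at the group median. The F1 points lie between the parents for Arid5b and Me1 and on the D2 points for Fxyd6 and Trim30a, and Fmn2 is the gene shown whose F1 and B6 points overlap.

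A block of vomeronasal receptor genes on chromosome 7 stood out among the losses. Type 1 vomeronasal receptors (Vmn1r) detect pheromones in the nose, and many are near-identical neighbours in the genome. Of 57 Vmn1r genes tested 23 were called, or 40.4% beside 5.5% of all genes. Of the 23, 22 were lower in F1 and lay on chromosome 7 between 20101158 and 23218255. Vmn1r212 was the gene called higher. In the 22 genes B6 means ran from 2.11 to 28.4 CPM and no D2 mean was above 0.0876 CPM. The part of the single assembly in these low D2 and F1 counts was not tested. Differences ran from −2.41 to −1.63 on the log2 scale. In 19 every F1 library lay below every B6 library, beside 1.52% of all genes. Vmn1r132 was at 17.8, 19.1, 10.5, 24.2 and 28.1 CPM in B6 and 3.92 to 8.17 in F1 (median 6.06), a log2 difference of −1.76 ± 0.29 (adjusted p = 9.44e-05). Vmn1r157 fell from 18.3 ± 7.11 to 5.48 ± 1.57 CPM (adjusted p = 0.00047). Both calls held whichever library was left out, but not in batch 1 alone.

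The similarity of these genes bears on how many separate signals they are. RefSeq holds promoters (250 bases before to 50 after the start, GRCm38.p6) for 21 of the 22. Those of Vmn1r139, Vmn1r112 and Vmn1r157 were identical, and 19 of the 21, these included, differed from that sequence at no more than 29 of 300 bases. The promoters of Vmn1r139 (chr7:22096617-22096916, plus strand) and Vmn1r143 (chr7:22189127-22189426, plus strand) are shown to let the likeness be seen, 5′ to 3′, with the 13 bases at which they differ in capitals.
Vmn1r139: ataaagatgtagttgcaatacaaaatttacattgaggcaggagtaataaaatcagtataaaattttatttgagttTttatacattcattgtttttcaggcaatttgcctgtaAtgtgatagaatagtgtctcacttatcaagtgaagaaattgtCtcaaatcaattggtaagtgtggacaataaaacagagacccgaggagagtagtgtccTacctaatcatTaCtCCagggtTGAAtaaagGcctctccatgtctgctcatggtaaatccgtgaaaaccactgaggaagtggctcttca
Vmn1r143: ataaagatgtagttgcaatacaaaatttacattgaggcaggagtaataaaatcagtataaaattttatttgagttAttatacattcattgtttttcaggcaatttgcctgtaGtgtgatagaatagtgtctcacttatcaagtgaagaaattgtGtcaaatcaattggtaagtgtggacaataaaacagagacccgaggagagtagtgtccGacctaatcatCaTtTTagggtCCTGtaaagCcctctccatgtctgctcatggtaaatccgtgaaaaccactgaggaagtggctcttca
Of the 50-nt windows of the annotated transcripts, the length of a read here, 100% in Vmn1r139, Vmn1r112 and Vmn1r132 and 87.6% in Vmn1r157 were found in the transcript of another gene. How reads with several matches were counted is not given in the sources used here, so the split of counts between these genes is uncertain and the 22 are not 22 independent changes. The Pramel genes are another family of related copies, picked like the next one after its values were seen: of 43 tested, 2 were called higher and 6 lower, or 18.6% beside 5.5% of all genes. Pramel25 and Pramel29 were the higher pair, at 1430 ± 216 and 1450 ± 213 CPM in F1 against 962 ± 206 and 1020 ± 151 in B6. Of 12 alpha-defensin genes (Defa) tested 7 were called (58.3%), all higher in F1 and all at low levels, such as Defa29 at 2.93 ± 1.07 CPM against 0.0824 ± 0.0543. Another gene shares 43.4% of the windows of Defa29, and in these families too the split of counts between copies is uncertain.

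The called genes with most reads had small differences. Among those with the highest mean CPM were Usp9x, Rdx, Atrx, Obox2 and Pramel29. Pramel29 rose by 0.52 ± 0.11 on the log2 scale with no overlap of the groups (adjusted p = 0.00212). Its call was lost in either batch alone and without a batch term (adjusted p up to 0.0812). Usp9x, a deubiquitinase, the membrane-cytoskeleton linker Rdx, the chromatin remodeller Atrx and the homeobox factor Obox2 fell by 0.44, 0.40, 0.42 and 0.36 on the log2 scale, with overlapping groups and adjusted p of 0.0423, 0.0425, 0.0327 and 0.0274. These 4 were lost in 6 to 9 of the 11 fits that left out 1 library. Without B6 replicate 1 of batch 2, adjusted p was 0.373 for Usp9x, 0.406 for Rdx, 0.292 for Atrx and 0.152 for Obox2. That library held 4850 CPM of Usp9x and 3930 of Rdx, the highest of the 11 libraries. With a replicate block the calls of Usp9x, Rdx, Atrx and Obox2 were lost too (adjusted p = 0.0903, 0.112, 0.0947 and 0.0775). Of the windows of the Obox2 transcript, 63.0% were shared with another gene.

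Gene lists for oocyte functions showed few changes in relation to their size. Of 856 listed genes tested in 26 lists, 25 were higher and 24 lower, or 5.72%, near the 5.5% of all genes. Without the 2 libraries of low granulosa level 22 were called, 10 higher and 12 lower. Each list is described below by its counts and its median, beside the median of −0.02 over all genes.

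Few genes of the oocyte surface and the maternal complexes passed the test. None of 17 genes of the subcortical maternal complex and the Nlrp family was called, with a median of −0.003 on the log2 scale. Of 18 zona and oocyte-secreted factors, Cd9 was called, a tetraspanin of the egg membrane needed for fusion with sperm. Cd9 was at 19.9 ± 10.3 CPM in B6 and 30.0 ± 16.7 in F1, with overlapping groups, and its call (adjusted p = 0.0126) was lost without B6 replicate 2 of batch 2 (adjusted p = 0.0524). Of 32 genes of oocyte multigene families Tcl1b2 and Fbxw26 were higher and Fbxw15 lower, with a median of 0.10. The calls of these 3 were lost without B6 replicate 1 of batch 2 (adjusted p = 0.0569 for Tcl1b2, with values of 214 to 347 CPM in F1 and 154 to 275 in B6, and 0.113 for Fbxw15). Fbxw15 was also lost without F1 replicate 2 of batch 1, and Fbxw26 without any of 3 further libraries of batch 2, up to adjusted p = 0.0926 (without B6 replicate 2). Among 17 oocyte transcription factors Obox2 was the gene called, with a median of −0.11.

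Of 36 genes of meiotic arrest, kinases and the anaphase-promoting complex, 2 were called higher and 1 lower (8.33%), with a median of −0.02. Gpr3, the receptor whose constant signal keeps cyclic AMP high and the oocyte arrested, was at 133, 111, 124, 87.8 and 130 CPM in B6 and 144 to 206 in F1 (median 165). Every F1 library lay above every B6 library, at a log2 difference of 0.54 ± 0.13 (adjusted p = 0.00683). Prkar2a, a regulatory subunit of the cyclic AMP-dependent kinase, was lower by −0.38 ± 0.09 (adjusted p = 0.00485), with overlapping groups. Mos, the kinase that starts the MAP kinase cascade of maturation, was at 161, 171, 144, 49.5 and 52.9 CPM in B6 and 92.6 to 232 in F1. Its call (0.66 ± 0.17, adjusted p = 0.0185) was lost without B6 replicate 1 of batch 2 (adjusted p = 0.095) or replicate 2 of that batch, the 2 low libraries. Neither batch alone called Gpr3 or Prkar2a. Prkar2a was also not called with no filter on low counts, no batch term or the compared groups alone.

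Of 40 genes of cohesin, kinetochore, spindle and checkpoint, 3 were called, all lower in F1, with a median of −0.08. Ndc80, the kinetochore protein that grips microtubules, was at 98.9, 101, 119, 153 and 99.3 CPM in B6 and 46.0 to 66.0 in F1 (median 55.7). The groups were separate, at −1.06 ± 0.16 on the log2 scale (adjusted p = 1.41e-05), and D2 was lower still at 23.4 to 34.9 CPM. Ndc80 was called under every alternative run. Fmn2, a formin that moves the meiotic spindle to the cortex, was at 419, 439, 371, 1150 and 795 CPM in B6 and 240 to 501 in F1 (median 357). Its groups overlapped, with the highest values in the B6 libraries of batch 2, at −0.76 ± 0.15 (adjusted p = 0.00153). Cep192, a scaffold of spindle poles, was lower by −0.52 ± 0.12 (adjusted p = 0.00544). Batch 1 alone called neither Fmn2 nor Cep192, and Cep192 was not called without the 2 libraries of low granulosa level.

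Slc39a8 was the gene called higher among 19 genes of egg activation and calcium, and Atp2a2 and Camk2g were lower, with a median of −0.17. Atp2a2, the pump that refills calcium stores, fell from 961 ± 319 to 714 ± 209 CPM with overlapping groups (−0.49 ± 0.10, adjusted p = 0.0014), and was not called in batch 1 alone or without a batch term. Camk2g, the calcium-dependent kinase of egg activation, fell by 0.29 ± 0.09 (adjusted p = 0.0376), a call lost in 10 of 11 fits without 1 library (adjusted p up to 0.145, without F1 replicate 5 of batch 1) and with a replicate block (adjusted p = 0.0628).

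Among regulators of stored RNA, 2 of 28 genes of translational control were called higher and none lower (7.14%), with a median of 0.11. Patl2, an RNA-binding repressor needed for oocyte growth, was at 23.6, 19.9, 28.9, 13.6 and 14.0 CPM in B6 and 33.2 to 49.8 in F1 (median 36.2). The groups did not overlap, at 0.98 ± 0.19 on the log2 scale (adjusted p = 0.000879), but batch 1 alone did not call Patl2 (adjusted p = 0.155). Pabpn1l, a poly(A)-binding protein of oocytes, was called at 0.87 ± 0.24 (adjusted p = 0.0233), but stood at 25.5, 30.5 and 27.8 CPM in the B6 libraries of batch 1 and 5.15 and 4.56 in those of batch 2. The F1 minus B6 difference of Pabpn1l was 0.17 in batch 1 and 1.89 in batch 2, and the call was lost without either B6 library or F1 replicate 2 of batch 2 (adjusted p up to 0.128, without B6 replicate 1). Of 35 mRNA decay genes Dis3l, an exosome nuclease, and Lsm1, of the ring that promotes decapping, were higher, with a median of −0.01. Dis3l was higher by 0.38 ± 0.10 (adjusted p = 0.0164). It was not called in either batch alone, with no filter on low counts, no batch term or the compared groups alone, or without the 2 libraries of low granulosa level. Lsm1 (adjusted p = 0.0463) was lost in 10 of 11 fits without 1 library, up to 0.0926 (without B6 replicate 5 of batch 1), and with a replicate block (0.0568).

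Of 29 genes of maternal chromatin and DNA methylation, Ctcf was called, an insulator protein stored in oocytes. Every F1 library (130 to 202 CPM) was above every B6 library (99.0 to 124), at 0.46 ± 0.11 on the log2 scale (adjusted p = 0.0107), although neither batch 1 alone nor the fit without the 2 libraries of low granulosa level called it. Of 19 small RNA genes Mael, a factor of transposon silencing, rose from 40.5 ± 12.7 to 70.2 ± 7.16 CPM (0.80 ± 0.14, adjusted p = 0.000215). Batch 2 alone did not call it (adjusted p = 0.248). F1 libraries of Mael held 60.7 to 79.9 CPM and 4 of the 5 B6 libraries lay below them, the other one being replicate 1 of batch 2 at 61.3. None of 21 genes of growth and PI3K signalling was called, with a median of −0.06.

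**Figure D4:**
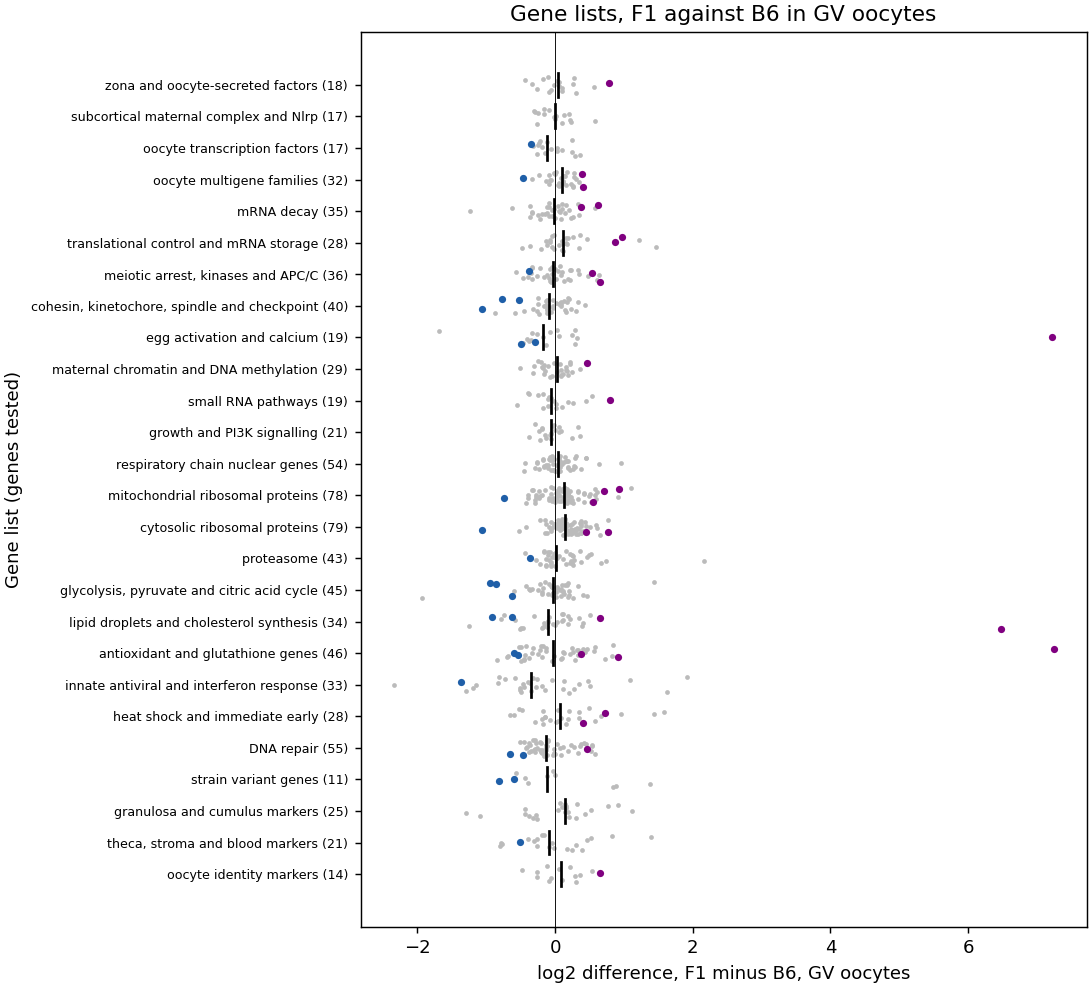
Log2 difference, F1 minus B6, of each tested gene of the 26 lists (number tested in parentheses), with called genes in purple (higher) and blue (lower), genes that did not pass in grey and a black bar at the list median. List medians lie between −0.34 and 0.15, and the points far to the right are Slc39a8, Pnpla3 and Gsto2.

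Metabolic lists held a few separate changes. None of 54 nuclear genes of the respiratory chain was called, with a median of 0.04. Me1, the cytosolic malic enzyme that supplies NADPH, was at 374, 381, 301, 332 and 304 CPM in B6 and 139 to 196 in F1 (median 181), with D2 at 24.4 to 57.0. The 3 groups did not overlap, and F1 was below B6 by −0.94 ± 0.12 (adjusted p = 2.14e-06) and above D2 by 1.93 (adjusted p = 3.07e-13). Sucla2, a subunit of succinyl-CoA synthetase, was lower by −0.86 ± 0.19 (adjusted p = 0.00417), a call lost without B6 replicate 1 of batch 2 (adjusted p = 0.0646). Gpi1 of glycolysis was the other of 3 calls in 45 genes, at −0.63 ± 0.17 (adjusted p = 0.0249). It was lost in 5 of 11 fits without 1 library, each of them a library of batch 1, with adjusted p up to 0.109 without F1 replicate 2.

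Among 34 genes of lipid droplets and cholesterol synthesis, Pnpla3 and Nsdhl were higher and Hsd17b7 and Sc5d lower, with a median of −0.10. Nsdhl, a sterol dehydrogenase on the X chromosome, was at 18.6 to 30.8 CPM in B6 and 31.6 to 51.8 in F1, without overlap (0.65 ± 0.16, adjusted p = 0.00983), but was not called in batch 1 alone or without the 2 libraries of low granulosa level. Hsd17b7 and Sc5d act in the same pathway and were lower by −0.62 ± 0.17 and −0.91 ± 0.24 (adjusted p = 0.0232 and 0.0153). Without B6 replicate 2 of batch 2 both were lost, at adjusted p of 0.303 and 0.101, and Hsd17b7 was lost without any of 5 other libraries as well. Of 46 antioxidant and glutathione genes Gsto2, Prdx3 and Glrx were higher and Txnrd1 and Gclm lower, with a median of −0.03. Prdx3, the peroxiredoxin of mitochondria, rose from 6.87 ± 4.03 to 11.1 ± 4.74 CPM with overlapping groups (adjusted p = 0.0114), a call lost without B6 replicate 1 of batch 2 (adjusted p = 0.0582). Txnrd1, a thioredoxin reductase, was lower by −0.54 ± 0.16 without overlap (adjusted p = 0.0433), but was lost in 9 of 11 fits without 1 library (up to 0.158, without F1 replicate 3 of batch 2) and with a replicate block (0.124). Gclm and Glrx were lost in 4 and 2 of these fits, up to 0.177 (without B6 replicate 1 of batch 2) and 0.0644 (without B6 replicate 2 of batch 2).

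Genes of protein synthesis and turnover were mostly at levels that did not pass. Of 78 mitochondrial ribosomal protein genes 3 were higher and 1 lower, with a median of 0.13, and of 79 cytosolic ones 2 were higher and 1 lower, with a median of 0.14. Differences above and below 0 numbered 55 and 23 in the mitochondrial list and 63 and 16 in the cytosolic list, which was not tested. Mrps27 was at 18.2, 19.5, 19.6, 15.1 and 26.4 CPM in B6 and 29.0 to 55.0 in F1 (median 38.4), with no overlap (0.92 ± 0.14, adjusted p = 3.56e-05). Batch 1 alone did not call Mrps27 (adjusted p = 0.0511). Mrps14 was higher by 0.71 ± 0.18 (adjusted p = 0.0147) and Rpl15 by 0.77 ± 0.18 (adjusted p = 0.00724), with overlapping groups. Neither was called in batch 1 alone, without a batch term or without the 2 libraries of low granulosa level, and batch 2 alone did not call Mrps14. Rpl23 was lower by −1.06 ± 0.29 (adjusted p = 0.0247), but was lost in 9 of 11 fits without 1 library (adjusted p up to 0.0913, without F1 replicate 3 of batch 2) and with a replicate block (0.0716). The other calls, Mrpl10 and Rpl14 higher and Mrpl35 lower, were lost with a replicate block (adjusted p = 0.146, 0.0705 and 0.064) and in 5 or 6 of 11 fits without 1 library. Transcripts of other genes share 30.2% of the windows of the Rpl15 transcript and 33.9% of Rpl23. Of 43 proteasome genes Psmd1 was lower (adjusted p = 0.0334), lost in 8 of 11 fits without 1 library (up to 0.16, without F1 replicate 3 of batch 2) and with a replicate block (0.11). The median of the proteasome list was 0.01.

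Stress, immune and repair genes were called as single members. Egr1, an immediate early transcription factor, was at 64.1, 57.0, 69.4, 70.6 and 83.3 CPM in B6 and 107 to 120 in F1 (median 114), with D2 at 143 to 176. The 3 groups were separate, and F1 was above B6 by 0.72 ± 0.10 (adjusted p = 2.82e-06) under every alternative run. Hspa8, a constitutive chaperone, was the other call in 28 heat shock and immediate early genes (0.40 ± 0.12, adjusted p = 0.0482), lost without any of 4 libraries of batch 2 (adjusted p up to 0.205, without B6 replicate 1). Trim30a, of the interferon-inducible Trim family, was at 21.0, 20.0, 17.7, 23.9 and 13.5 CPM in B6 and 3.81 to 9.65 in F1 (median 8.00). It was the gene called among 33 innate antiviral genes, at −1.36 ± 0.22 (adjusted p = 6.07e-05) without overlap, and F1 stood at the D2 level (7.98 ± 1.66 CPM, F1 against D2 adjusted p = 0.922). The median of that list was −0.34, with 23 of 33 differences below 0, which was not tested. Many of its genes were low, and 20 of the list reached at least 1 CPM in 16 libraries.

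Of 55 DNA repair genes Brca2 and Rad51d of homologous recombination were lower and Lig4 of end joining higher, with a median of −0.13. Brca2 fell from 571 ± 177 to 420 ± 77.3 CPM with overlapping groups (−0.47 ± 0.10, adjusted p = 0.00306), and was not called in batch 1 alone, without a batch term or with the compared groups alone. Rad51d was lower by −0.66 ± 0.17 (adjusted p = 0.0182), with the B6 libraries of batch 2 at 107 and 102 CPM and those of batch 1 at 35.1 to 44.7. Lig4 was higher by 0.47 ± 0.12 (adjusted p = 0.0195), lost without B6 replicate 2 of batch 2 (0.0556) or B6 replicate 4 of batch 1. The Rad51d call was lost in 4 of 11 fits without 1 library (adjusted p up to 0.0761, without B6 replicate 1 of batch 2).

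Of 11 genes tested with known sequence variants between B6 and D2 strains 2 were called. Myo5a, which carries the retroviral dilute insertion in D2 strains, was at 109, 112, 118, 186 and 138 CPM in B6 and 71.8 to 107 in F1 (median 90.1). The groups did not overlap (−0.60 ± 0.10, adjusted p = 6.62e-05), and D2 held 51.5 to 79.2 CPM. Batch 1 alone did not call it. Gpnmb, which has a nonsense variant in DBA/2J, was lower by −0.82 ± 0.24 (adjusted p = 0.0372), with overlapping groups, and was lost in 8 of 11 fits without 1 library (up to 0.129, without B6 replicate 1 of batch 2). Nnt, Glo1, Alad, Hc, Ahr, Cdh23, Ide and Mpdz did not pass. Nnt, partly deleted in C57BL/6J, was at 1.42 ± 0.935 CPM in B6 and 2.57 ± 1.23 in F1 (adjusted p = 0.55). Ide was nearest to the threshold, at −0.57 ± 0.18 (adjusted p = 0.051). Pecam1, an endothelial marker, was the gene called among 21 stroma and blood markers (−0.52 ± 0.16, adjusted p = 0.0489), lost in 10 of 11 fits without 1 library (up to 0.264, without B6 replicate 5 of batch 1) and with a replicate block (0.064).

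The last comparison asked whether the F1 difference at GV was also present in mature eggs at metaphase II (MII), whose 5 F1 and 6 B6 libraries share none with GV. In MII 1399 genes were called (7.36%), 886 higher in F1 (4.66%) and 513 lower (2.7%), and with a replicate block 916. Of the genes called higher at GV 354 were also called higher in MII, which is 65.8% of the GV list and 40.0% of the MII list. Of those called lower 200 were shared, 39.4% and 39.0% of the lists. None was called in opposite directions, and 521 of the 538 higher and 483 of the 507 lower genes had the same sign in MII. Both comparisons came from 1 fit to all 32 libraries, with a shared batch term and estimate of the spread. Across genes, which are not independent replicates, the differences at the stages had r = 0.381 over all 19003 genes and 0.885 over those called at GV.

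Of the genes named above, Pnpla3 differed by 6.89 ± 0.20 in MII on the log2 scale, Slc39a8 by 7.24 ± 0.45, Muc20 by −2.49 ± 0.26 and Myo10 by −1.64 ± 0.19. Gpr3, at 0.22 ± 0.12 in MII (adjusted p = 0.31), and Fmn2, at −0.31 ± 0.16 (adjusted p = 0.253), did not pass there. Whether F1 and B6 differed more at one stage than the other was tested by an interaction term, which passed for 2 of 19003 genes (0.0105%), with 1547 at an unadjusted p under 0.05. These were Pxdn, which encodes the matrix enzyme peroxidasin, and Pknox2, a homeobox factor. Pxdn was at 4.11, 5.97, 2.82, 0.756 and 8.25 CPM in B6 GV oocytes and 45.5 to 75.7 in F1 (median 53.9), and at 0.588 ± 0.312 CPM in B6 MII (SD, n = 6) and 64.6 ± 5.96 in F1 MII (SD, n = 5). Pknox2 was at 0.889, 1.08, 1.14, 0.331 and 5.87 CPM in B6 GV and 11.7 to 33.1 in F1 (median 20.4), and at 0.293 ± 0.130 and 32.0 ± 12.6 CPM in MII. For both genes the B6 mean was lower in MII than in GV and the F1 mean was not. The B6 GV libraries, in the same order, held granulosa marker sums of 1020, 1430, 782, 376 and 4240 CPM. Pxdn ranked as these sums did, and Pknox2 was lowest and highest in the same libraries as they were.

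The F1 minus B6 difference was larger in MII by 3.16 ± 0.42 on the log2 scale for Pxdn and by 3.38 ± 0.46 for Pknox2, each at adjusted p = 0.000188. With the granulosa level as a covariate these were 3.15 and 3.36 (adjusted p = 4.55e-05 and 7.59e-05). That covariate has 1 slope per gene across all groups, and the part of follicle-cell RNA was not tested. DESeq2 called 26 genes in this test and limma-voom none, with both genes at unadjusted p of 2.07e-05 and 5.6e-05 and adjusted p of 0.183 and 0.198 in limma-voom, where 1313 genes had an unadjusted p under 0.05. With a replicate block Pxdn passed (adjusted p = 0.0275) and Pknox2 did not (adjusted p = 0.0522). Batch 1 alone called both (adjusted p = 2.85e-05 and 0.00233) and batch 2 alone neither (0.474 and 0.403), at differences of 2.50 and 3.69. Without a batch term Pknox2 was not called (0.224).

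**Figure D5:**
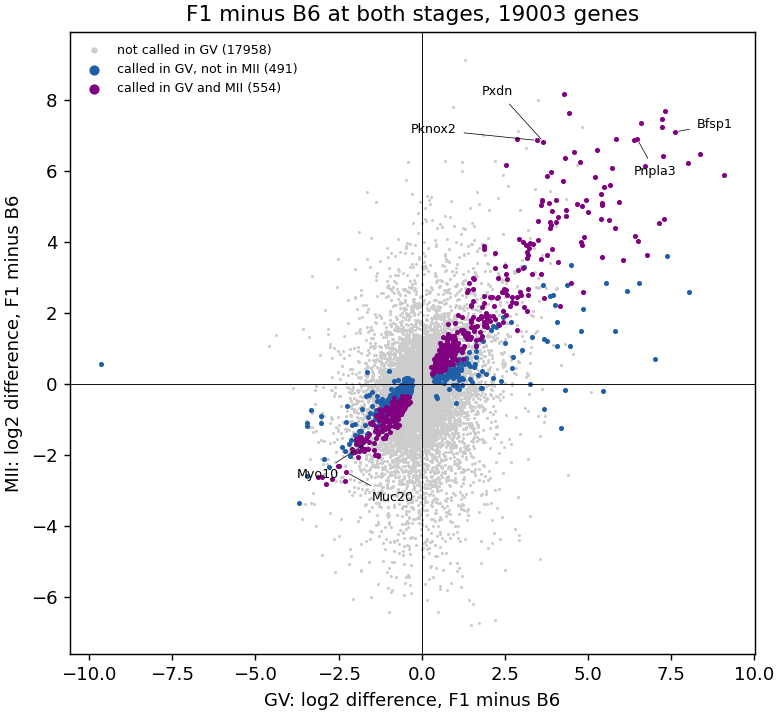
Log2 difference, F1 minus B6, at GV (x axis) and at MII (y axis) for 19003 genes, in purple where called at both stages, in blue where called at GV and not in MII, and in grey where not called at GV. The called genes lie mostly in the lower left and upper right, and Pxdn and Pknox2 have larger values at MII than at GV.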

How the data were processed

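Read counts per gene were deposited by the authors as 1 table with NCBI gene identifiers, not normalised. Per the labels' protocols, RNA of each pool was amplified by single primer isothermal amplification, sheared, given 12 PCR cycles and read as single 50-nt reads. Per the submitters' processing notes, HISAT2, SAMtools, featureCounts of Subread 1.5.1, GRCm38.p4 and DESeq2 1.16.1 were used; strand and multi-mapping settings are not given in the sources used here. Of 37444 entries 3 named no gene (at most 0.019% of a library) and were left out. The groups, gene lists and families were chosen with earlier results of these data known.

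The filterByExpr function, given the 6 groups, removed low genes, counts were scaled by TMM, and 1 model of groups and batch was fitted to all 32 libraries with edgeR 4.0.16's robust quasi-likelihood functions (R 4.3.3), with two-sided tests adjusted by Benjamini-Hochberg over 19003 genes at 0.05. SE is the log2 difference over the square root of F. CPM uses TMM library sizes, is not per length, and supports no comparison of levels between genes. Depth and the number of libraries set the precision. The rule for names took called genes of at least 5 CPM with the same direction in both batches, leaving out predicted genes and pseudogenes: the 8 largest differences each way, the 6 highest levels, up to 2 per list, and the strain variant genes; others are said to be named after their values were seen, as are the list members beyond these 2 and the families. A few names chosen in this way are left out here. No pair of replicates was alike within counting noise (chi-square per degree of freedom at least 20.0). Same-numbered libraries of a batch deviated together in all 4 shared numbers (r = 0.154 to 0.541 over 10002 genes), while differently numbered pairs ran from −0.541 to 0.314. B6 has 2 libraries in batch 2, so their deviations mirror each other. By the rule that every same-numbered pair exceed 0.1, the numbers were taken to pair libraries from the data, not the labels. In batch 2 the same-numbered F1 and B6 GV libraries carry different dates in their names, so what the number marks is unknown. F1 replicate 3, which shares the date of both B6 libraries, stood at −0.314 and 0.314 with them. Alternatives were other scalings, filters, DESeq2 1.42.0, limma-voom (limma 3.58.1), a 2-fold threshold, each batch alone, no or 3 batch levels, the compared groups alone, a replicate block, the granulosa level as a covariate, and each library left out. Leaving out both low-granulosa libraries was added after seeing the data. The fit was also run on counts simulated from 1 mean per gene. These had no batch, granulosa or replicate effects, so that run does not bear on such effects. Summaries and plots used matplotlib 3.10.9, pandas 2.3.3 and numpy 2.4.6 under Python 3.11.15. Gene names and promoters came from RefSeq.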

Additional observations from a re-analysis of the deposited data

Results flagged for a closer look

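A library far from the rest of its group, by Dixon's test at the 95% level on log2(CPM + 1), was found in 10 of 206 groups of library values, and chance flags about 1 in 20. In F1 GV batch 1 replicate 5, the lowest F1 library for each, Zfp708, a zinc finger gene, was at 21.2 CPM and Lig4 at 83.4 CPM. In B6 GV batch 2 replicate 1, Rdx was at 3930 CPM, the highest B6 library, Sc5d at 31.1 CPM, the lowest, and Ptprv, a receptor-type phosphatase gene, at 0 CPM. In B6 GV batch 2 replicate 2, Fbxw15 was at 276 CPM and Trim61, of the Trim family, at 798 CPM, the lowest of the group, and Pknox2 at 5.87 CPM, the highest. Without that library the GV difference of Pknox2 was 4.25 on the log2 scale, against 3.48 with it. Nsdhl was at 18.6 CPM in B6 GV batch 1 replicate 5, the lowest of its group, and Patl2 at 49.8 CPM in F1 GV batch 1 replicate 2, the highest.

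The F1 minus B6 difference changed between GV and MII, by the interaction term, for Pxdn by 3.16 and for Pknox2 by 3.38 on the log2 scale.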

How the results depend on the processing

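Of 1045 genes called, at least 2-fold differences were 444 (281 higher, 163 lower). DESeq2 called 836 higher genes, against 538. Batch 1 alone called 216 (165 higher, 51 lower), no batch term 416 (276 and 140), and a batch term of 3 levels 331 lower, against 507. Without both low-granulosa libraries, an alternative chosen after seeing the data, 537 were called (321 and 216). Leaving out 1 library gave 650 to 1171 calls, 386 to 739 higher and 264 to 432 lower. Calls of lower genes fell to 264 without B6 replicate 1 of batch 2, 279 without F1 replicate 3 of batch 2, 309 without F1 replicate 5 of batch 1 and 331 without B6 replicate 2 of batch 2. The causes were not tested. With a replicate block 879 genes were called at GV, 478 higher and 401 lower. The replicate block lost 15 of 93 named and called genes, at adjusted p of 0.0568 to 0.146, among them Zfp85, Mrpl10, Mrpl35, Rpl14 and Txnrd1, and it changed no other call among the 93. In MII, 1399 calls became 640 in batch 1 alone, 223 in batch 2 alone, 684 with no batch term and 916 with the replicate block. The stage difference, 2 genes, became 26 with DESeq2, 0 with limma-voom (1313 at an unadjusted p under 0.05), 6 in batch 1 alone, 0 in batch 2 alone (1686 at an unadjusted p under 0.05), 1 with no batch term and 1 with the replicate block. Of the 93 named and called genes 24 were called under every alternative, 56 whichever library was left out, and none turned. Batch 2 has 2 B6 libraries, so a difference within it rests on them.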
